A study of Mus musculus with 4 samples.

Results

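The genes described here encode the receptors for interleukin-12 (IL-12) and interleukin-18 (IL-18), namely Il12rb1, Il12rb2, Il18r1 and Il18rap, together with the transcription factor gene Stat4. They were chosen by name and are 5 of the 27998 genes counted by single-cell RNA sequencing of UTCαβ, unconventional αβ T cells without the coreceptors CD4 and CD8. Cells were kept with at least 1 unique molecular identifier (UMI, a tag that marks each captured transcript) of Cd3e, a chain of the T cell receptor complex, with 200 genes or more, up to 20000 UMIs and no more than 10% of UMIs from mitochondrial genes, which left 21342 of 32525 barcodes (65.6%). The cells had been sorted as CD45+ CD11b- and TCRβ+ TCRγδ- without CD4 or CD8 from 3-MCA-induced sarcomas (3-MCA, the carcinogen 3-methylcholanthrene) of 2 Csf3r+/+ and 2 Csf3r-/- mice, with 1 library of 3′ transcript ends per mouse. The Csf3r-/- mice lack the receptor for granulocyte colony-stimulating factor in all cells, not in T cells alone, and are used as a model of neutrophil deficiency. Every mouse received the carcinogen, and the labels give neither age nor any other allele or treatment. The number after each barcode separates the libraries of a genotype and is not tied to an animal, so the libraries are called Csf3r+/+ libraries 1 and 2 and Csf3r-/- libraries 1 and 2 and were used as unnumbered replicates.

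The receptor for IL-12 pairs the chains Il12rb1 and Il12rb2. Il12rb1 is shared with the receptor for IL-23, in which it pairs with Il23r, while Il12rb2 is the chain through which the kinase JAK2 activates STAT4. The receptor for IL-18 pairs the ligand-binding chain Il18r1 with the accessory chain Il18rap and signals through MYD88 and the IRAK kinases. Both cytokines are known for driving interferon-γ (Ifng) in T cells and NK cells, where T-bet (Tbx21) marks type 1 cells and IL-17 (Il17a) marks type 3 cells.

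In the GENCODE vM21 annotation of GRCm38, the build of the mm10 reference that the counts were made with, Il18r1 lies on chromosome 1 from 40465552 to 40500854 and Il18rap follows it on the same strand from 40515362 to 40551705, with 14507 bases between them. Stat4 lies on the plus strand of chromosome 1 from 51987148 to 52107189. Il12rb2 lies on the minus strand of chromosome 6 from 67291318 to 67376188, and its 3′ end shares 6419 bases with Serbp1 on the opposite strand. Il12rb1 lies on the plus strand of chromosome 8 from 70808449 to 70821424. The promoter sequences of RefSeq (GRCm38.p6, 250 bases before to 50 bases after a transcript start) matched 4 of the 5 genes, with 7 windows in all, and are printed because the receptor chains and Stat4 went in different directions in the comparisons that follow. Windows that hold the annotated gene start were taken for Il12rb2 (chr6:67376139-67376438, minus strand), Il18r1 (chr1:40465302-40465601), Il18rap (chr1:40515112-40515411) and Stat4 (chr1:51986898-51987197), and a later window of Il18r1 is chr1:40465756-40466055, all but the first on the plus strand. Capitals mark matches, on either strand, to the letters GGTGTGA of a T-box motif or TTCNNNGAA of a STAT motif, none of which overlap here.
Il12rb2: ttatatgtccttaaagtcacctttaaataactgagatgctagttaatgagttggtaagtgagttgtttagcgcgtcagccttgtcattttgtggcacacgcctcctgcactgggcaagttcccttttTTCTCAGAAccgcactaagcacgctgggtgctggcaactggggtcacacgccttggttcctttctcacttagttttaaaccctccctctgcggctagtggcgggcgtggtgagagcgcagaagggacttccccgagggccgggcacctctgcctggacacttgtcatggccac
Il18r1 first window: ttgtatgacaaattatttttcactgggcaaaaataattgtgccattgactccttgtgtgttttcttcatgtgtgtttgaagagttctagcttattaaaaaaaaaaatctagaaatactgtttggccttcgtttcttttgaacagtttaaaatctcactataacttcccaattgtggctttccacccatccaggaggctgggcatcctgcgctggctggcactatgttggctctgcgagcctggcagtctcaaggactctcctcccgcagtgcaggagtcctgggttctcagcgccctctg
Il18r1 later window: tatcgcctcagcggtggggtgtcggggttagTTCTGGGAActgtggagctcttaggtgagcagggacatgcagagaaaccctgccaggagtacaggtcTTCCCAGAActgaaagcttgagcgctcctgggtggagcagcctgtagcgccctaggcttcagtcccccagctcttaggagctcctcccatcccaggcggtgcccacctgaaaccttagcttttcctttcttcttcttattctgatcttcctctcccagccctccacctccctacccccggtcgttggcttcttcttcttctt
Il18rap: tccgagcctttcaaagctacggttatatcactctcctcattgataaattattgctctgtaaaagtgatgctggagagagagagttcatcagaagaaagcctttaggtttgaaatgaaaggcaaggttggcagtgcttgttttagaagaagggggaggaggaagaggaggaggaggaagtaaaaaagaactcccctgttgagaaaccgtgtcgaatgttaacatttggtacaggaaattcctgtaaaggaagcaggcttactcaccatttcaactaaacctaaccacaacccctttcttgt
Stat4: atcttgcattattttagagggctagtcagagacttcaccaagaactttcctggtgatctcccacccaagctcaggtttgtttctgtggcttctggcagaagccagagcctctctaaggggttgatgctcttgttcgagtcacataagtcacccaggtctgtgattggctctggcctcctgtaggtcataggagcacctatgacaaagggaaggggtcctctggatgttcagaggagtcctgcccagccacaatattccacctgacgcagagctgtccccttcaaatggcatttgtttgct

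The Il12rb2 window held 1 STAT match, at -123 bases from the start. The later Il18r1 window held 2, at -219 and -152 bases from its own transcript start. That whole window lies past the annotated gene start at 40465552. The Il18rap and Stat4 windows and the first Il18r1 window held no match to either motif. Further windows of Il18r1 (chr1:40465371-40465670) and Stat4 (chr1:52007990-52008289), which are not printed, held none either. Of all 32851 promoter windows, 8.3% held the STAT letters and 3.98% the T-box letters, and the matches serve as a description of the windows only.

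The UMIs of the kept cells summed to 9827411 and 23753033 for Csf3r+/+ and to 14166978 and 16241257 for Csf3r-/- libraries 1 and 2, with medians of 3055, 3026, 2239 and 1983 UMIs per cell. The 9 T cell genes of the marker list were found in every library, with summed levels of 5231 to 7021 CPM (UMIs of a gene scaled to 1000000 UMIs per library or cell set), and the coreceptors Cd4, Cd8a and Cd8b1 together reached 11.3 to 33.8. The macrophage list (8 genes, Apoe highest) summed to 24.0 and 311 CPM in the Csf3r+/+ libraries and to 128 and 1526 in the Csf3r-/- libraries, so that Csf3r-/- library 2 stood apart. Csf3r itself had 1, 3, 2 and 1 UMIs in the 4 libraries, too few to check the genotype. The limits kept 2843 of 3625 and 6458 of 11512 barcodes in the Csf3r+/+ libraries, and 5215 of 7178 and 6826 of 10210 in the Csf3r-/- libraries. Csf3r+/+ library 2 thus lost the largest part, and its kept cells had the least Cd3e (439 CPM, against 714 to 791). Libraries shared 20 to 56 barcode sequences pair by pair. Between genotypes, p-values measure the spread between 4 mice, and an exact permutation test of 2 against 2 libraries cannot go below 0.333. Where cell sets are compared within libraries, p-values set the difference between the sets against a spread over libraries. That spread is estimated in part from other genes, so a small p can go with steps that differ widely between libraries. The p-values of different comparisons can therefore not be ranked against each other. In edgeR, information on the spread is shared between genes, so p-values rest on that as well as on 4 libraries. In sums over a library, fewer cells of a kind and fewer transcripts per cell cannot be told apart.

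Il18r1 was the most abundant of the 5 transcripts and Il12rb2 the least. Over the 4 libraries the mean level was 145 ± 54.4 CPM (SD, n = 4) for Il18r1, 92.1 ± 38.1 for Stat4, 57.4 ± 29.5 for Il12rb1, 46.7 ± 10.1 for Il18rap and 15.3 ± 13.5 for Il12rb2. Each neighbouring pair in this order differed by less than the larger of their SDs, except Il18rap and Il12rb2. A 3′ library gives about 1 fragment per transcript whatever its length, and the share of transcripts captured per gene is unknown, so the order is a description of UMIs.

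Relative to their means, the IL-12 receptor chains differed most between libraries, and they did so in opposite directions. Il12rb1 was at 61.3 and 17.7 CPM in Csf3r+/+ libraries 1 and 2 and at 88.9 and 61.8 in Csf3r-/- libraries 1 and 2. Il12rb2 was at 8.65 and 35.3 in the Csf3r+/+ libraries and at 6.35 and 10.8 in the Csf3r-/- libraries. Csf3r+/+ library 2 was thus the lowest for the chain shared with the IL-23 receptor and the highest for its partner chain Il12rb2, and it was the single library with fewer Il12rb1 than Il12rb2 UMIs, with a ratio of 0.502 against 5.70 to 14.0 in the others.

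For the ligand-binding chain of the IL-18 receptor both Csf3r-/- libraries were above both Csf3r+/+ libraries, as held for 30.4% of genes tested. The accessory chain did not separate them. Il18r1 was at 99.3 and 96.6 CPM in the Csf3r+/+ libraries and at 186 and 197 in the Csf3r-/- libraries. Il18rap was at 38.4 and 61.3 in the Csf3r+/+ libraries and at 44.5 and 42.6 in the Csf3r-/- libraries. Stat4, which transmits the IL-12 signal, was at 65.2 and 145 in the Csf3r+/+ libraries and at 63.5 and 94.6 in the Csf3r-/- libraries. For Il18rap and Stat4 the genotypes overlapped, with Csf3r+/+ library 2 highest in both.

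**Figure D1:**
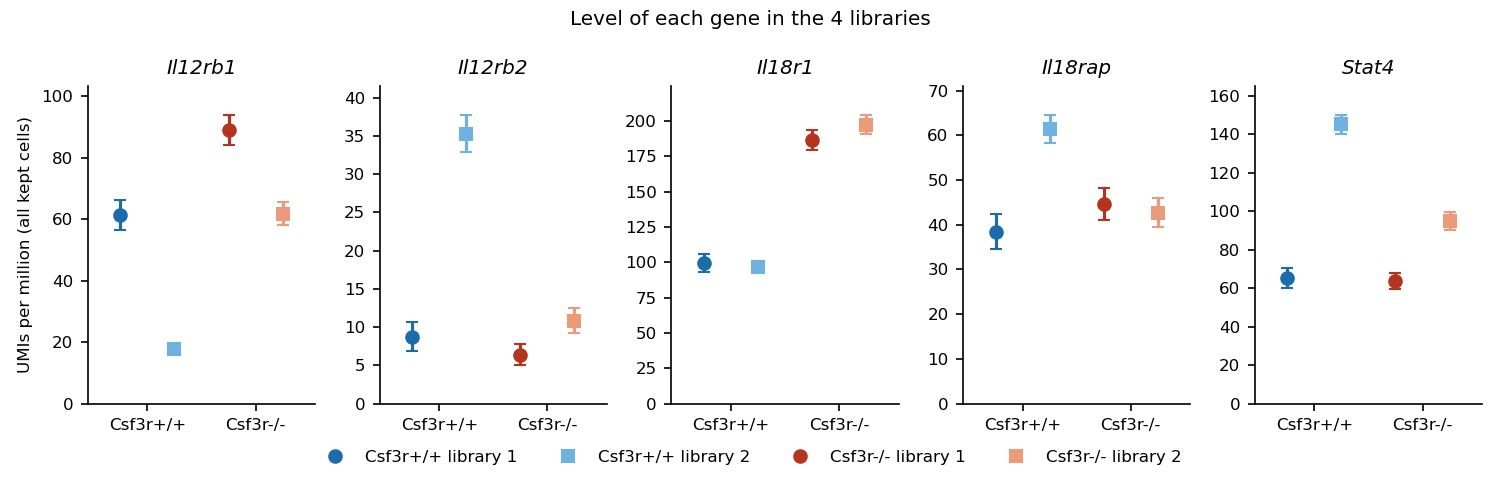
CPM of each gene over all kept cells of a library (vertical axis, from 0), by genotype; points are the 4 libraries and bars the exact 95% Poisson interval, which covers counting error only. Il18r1 is the gene with both Csf3r-/- libraries (186 and 197) clear of both Csf3r+/+ libraries (99.3 and 96.6), while Il12rb1, Il12rb2 and Stat4 are set apart mainly by Csf3r+/+ library 2. Of all genes tested, 30.4% had both Csf3r-/- libraries above both Csf3r+/+ libraries.

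Shares of cells with a UMI were taken after every cell was thinned to 1500 UMIs, which 19624 cells allowed and for which 1718 were too shallow (63 and 139 in Csf3r+/+ and 541 and 975 in Csf3r-/- libraries 1 and 2). Il18r1 was found in 14.7% and 14.6% of cells of the Csf3r+/+ libraries and in 23.8% and 25.4% of cells of the Csf3r-/- libraries. Il12rb1 was found in 9.17% and 2.80%, and in 12.5% and 8.68%, in the same order of libraries, so that the genotypes overlapped. Il12rb2 was found in 1.15% and 5.16% of the Csf3r+/+ cells and in 0.749% and 1.35% of the Csf3r-/- cells. Unthinned, the Il18r1 shares were 27.5% and 28.2%, and 36.9% and 35.1%, so the shares depend on depth and do not count the cells that transcribe a gene. Among 115 barcodes of the same depth without T cell genes (median 5101 UMIs before thinning, against 2094 to 3080 in the cells), Il12rb2, Il18r1 and Il18rap had no UMI, which allows a share of up to 2.61%, Il12rb1 had a UMI in 1 barcode (0.870%) and Stat4 in 6 (5.22%, exact 95% interval 1.94 to 11%). The Il12rb2 share exceeded the limit that these barcodes allow in Csf3r+/+ library 2 alone, and the Stat4 share (9.64% and 19.0%, 8.92% and 12.5%) exceeded their interval in Csf3r+/+ library 2 and Csf3r-/- library 2. The Il12rb1 share of Csf3r+/+ library 2 (2.80%) lay within their exact 95% interval for that gene (0.0220 to 4.75%), and the shares of the other libraries lay above it. In Csf3r+/+ library 2 the Stat4 share was above that of Il18r1.

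Tested over all genes, none of the 5 passed the threshold of edgeR between the genotypes, which does not show equal levels. Summed UMIs of each library went into the quasi-likelihood test of edgeR, p-values were adjusted over 11491 genes by Benjamini and Hochberg, and 0 genes (0% of those tested) passed an adjusted p of 0.05, while 1663 had an unadjusted p under 0.05. Il18r1 came nearest, with a log2 change of 0.87 ± 0.18 (SE) in Csf3r-/- over Csf3r+/+ cells (unadjusted p = 0.00503, edgeR adjusted p = 0.142). DESeq2 gave the same log2 change with an adjusted p of 0.0149, among 626 genes called by it (5.45% of those tested). Having both Csf3r-/- libraries above both Csf3r+/+ libraries, as Il18r1 had, was common: it held for 30.4% of the genes tested. For Il12rb1 the nearest libraries of the genotypes, at 61.3 and 61.8, differed by less than counting error.

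The other 4 genes had wide errors. Il12rb1 changed by 0.88 ± 0.55 (edgeR adjusted p = 0.547), Il12rb2 by -1.50 ± 0.76 (0.458), Stat4 by -0.54 ± 0.49 (0.689) and Il18rap by -0.32 ± 0.31 (0.708), none of which passed. Csf3r+/+ library 2 decided the last 3 values: without it Il12rb2 was at -0.02, Stat4 at 0.27 and Il18rap at 0.16, and without Csf3r+/+ library 1 the Il12rb1 change of 1.90 passed (edgeR adjusted p = 0.0434). The pathway lists held 55 other genes (ligands, related receptor chains, kinases and adaptors, other STATs, feedback genes, targets and partners). Of these, 49 were tested and none passed in either direction. Their median log2 change was -0.08, against 0.00 over all genes tested. By list, the medians ran from -0.93 for 16 tested targets and partners, the list with Ifng and Tbx21, to 0.32 for 6 other STATs. The ligands themselves were near absent from these cells: Il12a, Il12b and Il23a had at most 3 UMIs in any library and Il18 at most 12, whereas Il18bp, a secreted inhibitor of IL-18, had 87 to 142.

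To place the receptors within a library, each thinned cell was assigned to a type 1 range if it had more UMIs of 8 type 1 genes (Tbx21, Eomes, Ifng, Gzma, Gzmb, Prf1, Fasl, Xcl1) than of 8 type 3 genes (among them Il17a, Il17f, Il22, Ccr6, Tmem176a, Tmem176b and Blk), and to a type 3 range in the opposite case. The type 1 range held 46.4% and 79.6% of Csf3r+/+ cells (libraries 1 and 2) and 17.8% and 16.5% of Csf3r-/- cells, and the type 3 range 49.8% and 9.32%, and 76.1% and 79.2%. In each range the median cell had 0 UMIs of the opposite list and 3 to 6.5 of its own. Cells within 1 UMI of the limit made up 6.81% and 17.6% of the Csf3r+/+ range cells and 9.97% and 7.83% of the Csf3r-/- range cells. Neither list holds any of the 5 genes.

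All 5 genes differed between the ranges, in opposite pairs. Il12rb2 and Stat4 were higher in the type 1 range, Il18rap was slightly higher there, and Il12rb1 and Il18r1 were higher in the type 3 range. Each did so in 4 of 4 libraries, as held for 13.2% of genes higher and 36.9% lower in the type 1 range. These directions and shares are of CPM scaled by UMI totals alone, while the edgeR fits scale the cell sets further. Across all 8385 genes tested, with the library as a block, 27.3% passed (14.7% higher and 12.6% lower in the type 1 range), so a call in this comparison is frequent, and the direction and size are what tell the genes apart.

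Il12rb2 had the largest difference of the 5. It was at 14.0, 40.5, 21.6 and 45.7 CPM in type 1 range cells of Csf3r+/+ libraries 1 and 2 and Csf3r-/- libraries 1 and 2, and at 1.44, 13.6, 1.31 and 2.45 in their type 3 range cells, where it rested on 3, 12, 7 and 17 UMIs. The log2 difference, type 1 over type 3, was 3.63 ± 0.39 (edgeR adjusted p = 0.000166). In the share of cells with a UMI, the ranges were at 2.09% and 0.217% in Csf3r+/+ library 1 and at 6.23% and 0.345% in Csf3r-/- library 2. Csf3r+/+ library 2 held 326 of the 472 cells with an Il12rb2 UMI, and there the levels (40.5 and 13.6 CPM) differed by the smallest factor. Levels in the type 1 range of both Csf3r-/- libraries lay between those of the Csf3r+/+ libraries or just above them.

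Stat4 followed the same direction with a smaller size. Its levels were 87.9, 156, 126 and 143 CPM in the type 1 range and 51.0, 81.5, 47.8 and 82.2 in the type 3 range, a log2 difference of 1.18 ± 0.11 (edgeR adjusted p = 9.4e-05). No type 3 value reached the lowest type 1 value.

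Il12rb1 went the other way from its partner chain. It was at 30.0, 17.2, 43.2 and 27.7 CPM in the type 1 range and at 105, 40.7, 108 and 69.8 in the type 3 range, with a log2 difference of -1.25 ± 0.13 (edgeR adjusted p = 0.000111). Il23r, its partner in the IL-23 receptor, had the largest negative difference of the tested pathway genes, at -4.07 ± 0.46 (adjusted p = 0.000198). It was at 0.399 to 8.82 CPM in the type 1 range and at 38.6 to 54.6 in the type 3 range.

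The IL-18 receptor chains also parted. Il18r1 was at 40.9, 95.9, 82.3 and 94.8 CPM in the type 1 range and at 183, 221, 222 and 232 in the type 3 range, a log2 difference of -1.30 ± 0.15 (edgeR adjusted p = 0.000225). Il18rap was at 50.7, 65.8, 51.2 and 47.8 in the type 1 range and at 36.1, 50.9, 41.2 and 41.3 in the type 3 range, a log2 difference of 0.53 ± 0.10 (edgeR adjusted p = 0.00344). Its ranges overlapped across libraries and differed within each of them.

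**Figure D2:**
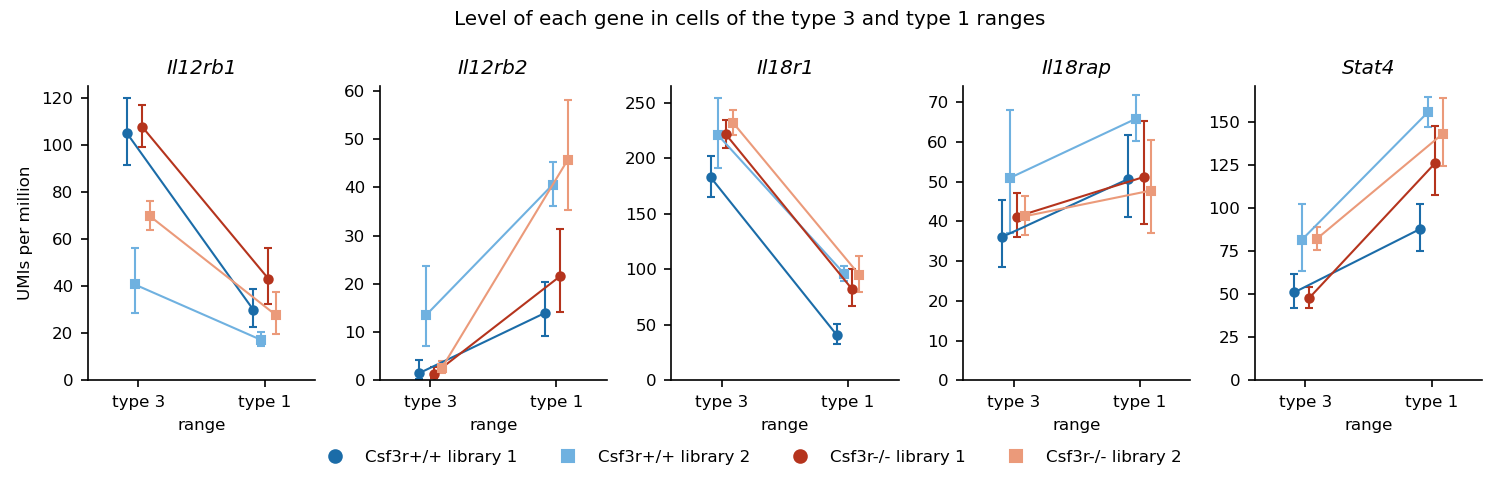
CPM of each gene (vertical axis, from 0) in cells of the type 3 and type 1 ranges, after thinning to 1500 UMIs; lines join the ranges of 1 library and bars are exact 95% Poisson intervals. All 4 lines rise toward the type 1 range for Il12rb2, Il18rap and Stat4, and all 4 fall for Il12rb1 and Il18r1.

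The differences were as large or larger away from the limit for Il12rb2, Stat4, Il18rap and Il18r1, and nearly as large for Il12rb1. Il12rb2 was at 0.532, 5.75, 0.889 and 1.79 CPM in cells with at least 3 more type 3 than type 1 UMIs, and at 15.9, 44.1, 28.3 and 53.5 in cells with at least 3 more type 1 UMIs. Il18r1 went from 186, 282, 225 and 235 at the type 3 end to 40.7, 95.2, 83.5 and 86.5 at the type 1 end. Between these ends the cells without a difference had intermediate Il18r1 in every library (62.9, 102, 94.6 and 130). With the narrower ranges that leave out every cell within 2 UMIs, chosen after the values were seen, the log2 difference was 4.86 for Il12rb2, 1.26 for Stat4, 0.81 for Il18rap, -1.43 for Il18r1 and -1.23 for Il12rb1, and all passed.

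**Figure D3:**
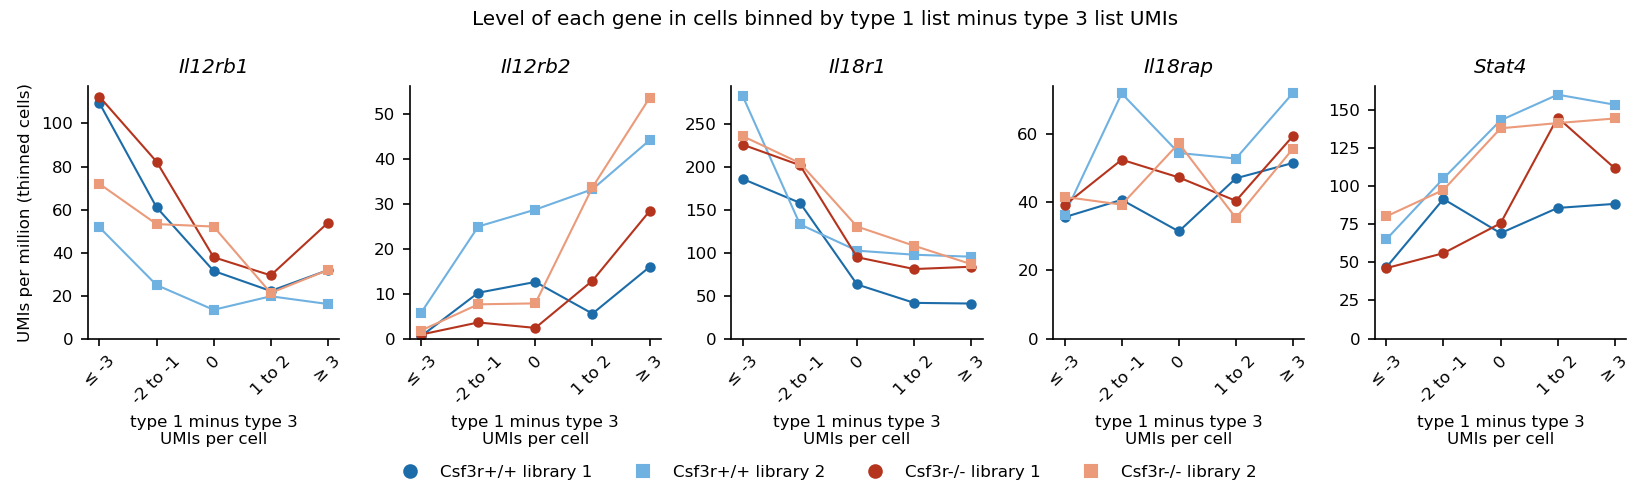
CPM of each gene (vertical axis, from 0) in cells binned by their type 1 list UMIs minus their type 3 list UMIs (horizontal axis), with 1 line per library and 106 to 4106 cells per point. From the left end to the right end Il12rb2, Stat4 and Il18rap go up and Il12rb1 and Il18r1 go down in all 4 libraries, with irregular steps between them. Il18rap changes by the smallest factor.

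Among the 38 tested pathway genes that are not members, 9 were higher and 10 lower in the type 1 range, with a median log2 difference of 0.08 against 0.01 over all genes. Among the higher genes were Cxcr3 (2.68 ± 0.43), a chemokine receptor of type 1 cells, and Irf8 (2.00 ± 0.28), an interferon-response factor. Lowest, beside Il23r, were Il1r1 (-3.97 ± 0.37), the receptor for IL-1, and Ifngr2 (-3.49 ± 0.25), a chain of the interferon-γ receptor. All 8 genes of the kinase and adaptor list were tested, and they are named after their values were seen. Jak2, the kinase bound to Il12rb2, was higher (1.16 ± 0.29), and so was Jak1 (0.60 ± 0.09). Tyk2 and the IL-18 signalling genes Myd88, Irak1, Irak2, Irak4 and Traf6 did not pass.

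Within a range, no member that could be tested passed between the genotypes. In the type 1 range, where 1.1% of 7964 genes passed, Il12rb1 changed by 0.62 ± 0.35 in Csf3r-/- over Csf3r+/+ cells, Il18r1 by 0.33 ± 0.40, Il12rb2 by 0.24 ± 0.55, Stat4 by 0.13 ± 0.32 and Il18rap by -0.26 ± 0.26 (edgeR adjusted p of 0.986 for Il12rb1 and 1 for the others). In the type 3 range, where 0.624% of 9614 genes passed, Il12rb1 changed by 0.24 ± 0.43, Il18r1 by 0.15 ± 0.20, Stat4 by -0.01 ± 0.38 and Il18rap by -0.06 ± 0.25 (adjusted p 0.883 to 0.998), and Il12rb2 was too low to be tested. The Il18r1 change of 0.87 over all cells was larger than either within-range value, and the shares of cells in the ranges moved with genotype beside it; their part in the result was not tested. With SEs of 0.20 to 0.55 these fits could miss changes of that size, and a p that misses the threshold does not show equal levels.

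**Figure D4:**
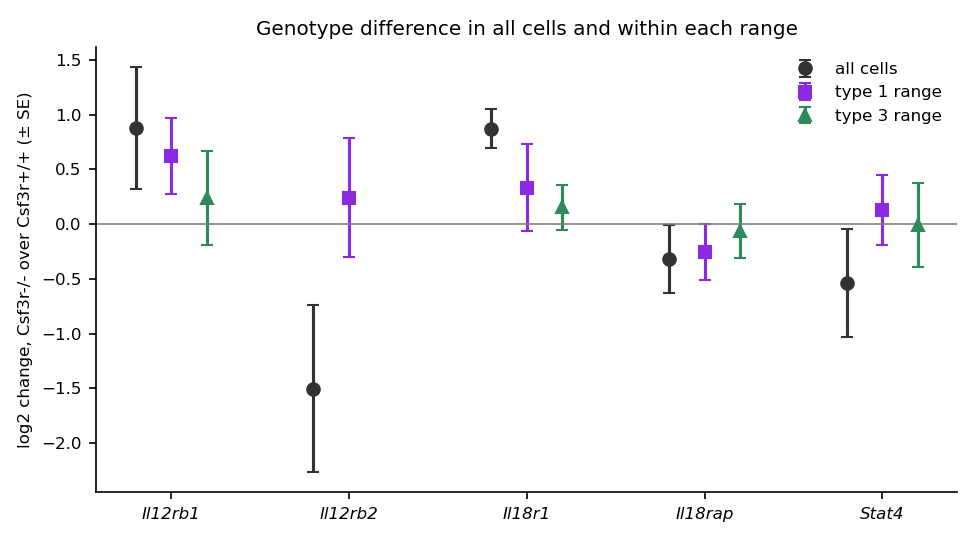
Log2 change of each gene in Csf3r-/- over Csf3r+/+ libraries (vertical axis), over all cells and within each range; bars are ± 1 SE of the edgeR fit with 2 libraries per genotype, and Il12rb2 has no point in the type 3 range because it was not tested there. Il18r1 over all cells, at 0.87, lies farthest from 0 in units of its SE, and no point passed the adjusted threshold.

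A single pathway gene passed between genotypes in either range. Socs1, which restrains cytokine signals through JAK kinases, was at 69.6 and 83.0 CPM in the type 1 range of the Csf3r+/+ libraries and at 8.82 and 6.95 in the Csf3r-/- libraries (log2 change -3.29 ± 0.31, edgeR adjusted p = 0.0159). In the type 3 range it was at 98.7 and 63.6 against 9.22 and 5.07 (-3.55 ± 0.36, adjusted p = 0.0338). The call ended in the type 1 range without Csf3r-/- library 2 (-3.18, edgeR adjusted p = 0.204), and in the type 3 range without Csf3r+/+ library 1 (-3.23, adjusted p = 0.0813), without Csf3r+/+ library 2 (-3.80, adjusted p = 0.079) and without thinning (-3.40, adjusted p = 0.0887). Over all alternatives run the change lay between -3.64 and -2.65 in the type 1 range and between -3.98 and -3.20 in the type 3 range. Both Csf3r-/- libraries were below both Csf3r+/+ libraries in each range, as held for 16.3% of genes in the type 1 range and 18.8% in the type 3 range, and over all cells the change of -3.36 ± 0.29 had an adjusted p of 0.0667.

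Cells with and without an Ifng UMI were then compared within libraries, which 2441 and 17183 thinned cells allowed. Il12rb2 and Il18rap were higher in the Ifng-containing cells, and they were the 2 members that passed, in a comparison where 3.99% of 9038 genes passed and 2.27% were higher. Il12rb2 was at 13.5, 48.1, 19.4 and 36.4 CPM in cells with Ifng, where only 8, 95, 7 and 19 cells had an Il12rb2 UMI. In cells without Ifng it was at 6.71, 33.3, 4.21 and 8.02 (log2 difference 1.19 ± 0.30, edgeR adjusted p = 0.035). Leaving out Csf3r+/+ library 1, Csf3r-/- library 1 or Csf3r-/- library 2 ended this call, with values of 1.13, 1.03 and 0.85 (edgeR adjusted p = 0.133, 0.115 and 0.192), and without Csf3r+/+ library 2 it was 1.97. Il18rap was at 67.7, 82.4, 69.4 and 63.8 with Ifng and at 38.6, 57.5, 41.9 and 41.7 without (0.71 ± 0.12, edgeR adjusted p = 0.00504), and with a second thinning of the same cells it was at 0.45 (adjusted p = 0.0714).

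For Stat4, Il18r1 and Il12rb1 the cells with and without Ifng did not pass. Stat4 differed by 0.39 ± 0.13 (edgeR adjusted p = 0.147), with higher levels in 3 of 4 libraries, Il18r1 by -0.43 ± 0.15 (adjusted p = 0.153) and Il12rb1 by -0.33 ± 0.19 (adjusted p = 0.495). Without Csf3r+/+ library 2, both Stat4 (0.62, adjusted p = 0.00858) and Il18r1 (-0.67, adjusted p = 0.00788) passed. Of 44 pathway genes, 5 were higher with Ifng, led by Gzmb (1.72 ± 0.18), Tbx21 (1.29 ± 0.25) and Cxcr3 (1.09 ± 0.20), and 4 were lower, led by Il23r (-2.42 ± 0.33), Il1r1 (-1.94 ± 0.39) and Ifngr2 (-1.43 ± 0.32).

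The cells were also split by detection of Tbx21, the factor known to open the type 1 program. Cells with a Tbx21 UMI were fewer than the 2441 with an Ifng UMI, so the calls of these splits cannot be set side by side. In 846 cells with a Tbx21 UMI against 18778 without, 1.87% of 8734 genes passed and none of the 5 did. Il18r1 was at 61.5, 104, 106 and 73.4 CPM with Tbx21 and at 115, 109, 191 and 207 without (log2 difference -0.60 ± 0.19, edgeR adjusted p = 0.128), lower in 4 of 4 libraries, and without Csf3r+/+ library 2 it passed (-1.01, adjusted p = 0.00215). Il12rb2 was at 20.5, 45.3, 6.23 and 24.5 with Tbx21, from 4, 34, 1 and 4 UMIs, and at 7.04, 36.0, 4.96 and 9.52 without (0.65 ± 0.34, adjusted p = 0.56). Stat4 (0.38 ± 0.20), Il12rb1 (-0.30 ± 0.25) and Il18rap (0.15 ± 0.21) had adjusted p of 0.562 to 0.988. Among 42 pathway genes Ifng (1.48 ± 0.24), Gzmb (1.35 ± 0.20) and Cxcr3 (1.22 ± 0.22) led 4 that were higher, and of 4 that were lower Il23r had 5 UMIs and Ifngr2 4 UMIs in the cells with Tbx21, with Il2ra at -1.15 ± 0.27.

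The opposite reading, from each receptor to Ifng, gave the clearest contrast for Il12rb2. It reads the same cells with UMIs of both genes as the split by Ifng, from the other side, and is not separate evidence. Among cells with an Il12rb2 UMI, 25%, 29.1%, 20.0% and 24.1% also had an Ifng UMI in Csf3r+/+ libraries 1 and 2 and Csf3r-/- libraries 1 and 2, from 32, 326, 35 and 79 cells. Among the others the shares were 14.0%, 22.5%, 5.02% and 6.01%. Both Csf3r+/+ libraries were above both Csf3r-/- libraries among cells with Il12rb2 and among those without it, and among cells with Il12rb2 the exact 95% binomial intervals of the libraries overlapped. The difference between the genotypes in this log2 step, a test chosen after the values were seen, was 1.92 ± 0.38 larger in Csf3r-/- (edgeR adjusted p = 0.000373), where 0.31% of genes passed. That test sets 2 against 2 libraries, where an exact permutation test cannot go below 0.333. The cells without Il12rb2 also differed in make-up, as the type 3 range held a larger share of cells in both Csf3r-/- libraries. The part of this in the genotype difference was not tested. In summed UMIs Ifng was at 459, 418, 324 and 388 CPM with Il12rb2 and at 197, 332, 46.9 and 72.7 without, a log2 difference of 1.43 ± 0.21 (edgeR adjusted p = 2.83e-09) in a comparison where 1.66% of 8378 genes passed and 0.74% were higher. The step differed widely between libraries, from 418 against 332 in Csf3r+/+ library 2 to 324 against 46.9 in Csf3r-/- library 1. The SE and p rest on a spread shared between genes and do not measure that variation alone.

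Il18rap showed the same direction with a smaller step. An Ifng UMI was found in 21.1%, 29.4%, 8.68% and 9.17% of cells with Il18rap and in 13.7%, 22.2%, 4.90% and 6.06% of cells without. The log2 difference of Ifng was 0.56 ± 0.08 (edgeR adjusted p = 6.97e-07), where 0.286% of 8739 genes were higher. For Il12rb1 (-0.42 ± 0.17, adjusted p = 0.32), Il18r1 (-0.37 ± 0.14, adjusted p = 0.199) and Stat4 (0.27 ± 0.09, adjusted p = 0.0884) the Ifng difference did not pass. These calls rested on Csf3r+/+ library 2: without it the differences were -0.85 for Il12rb1, -0.78 for Il18r1 and 0.49 for Stat4, and all passed (edgeR adjusted p = 0.0051, 0.000248 and 0.00311). With no filter on low counts the differences for Il12rb1 (-0.52, adjusted p = 0.000542) and Il18r1 (-0.39, adjusted p = 0.00256) also passed, as did that for Il12rb1 with a second thinning (-0.74, adjusted p = 0.000337). Over 9 alternatives each, the values ran from -0.85 to -0.11, from -0.78 to -0.23 and from 0.19 to 0.49.

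**Figure D5:**
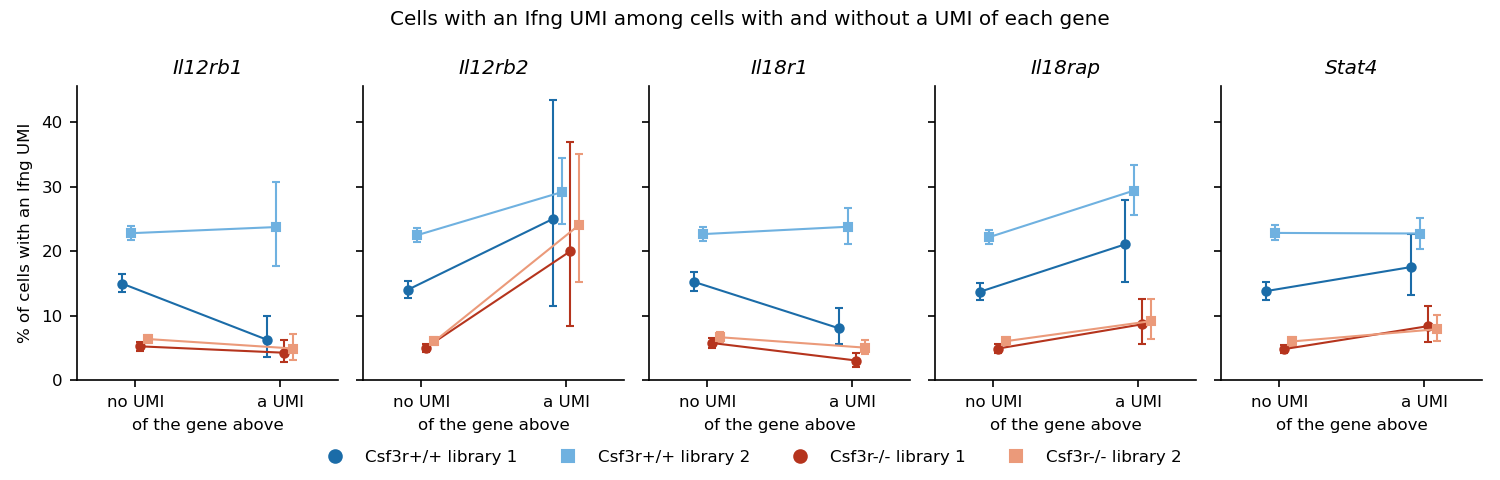
Share of thinned cells with an Ifng UMI (vertical axis, percent, from 0) among cells without and with a UMI of each gene; lines join the values of 1 library and bars are exact 95% binomial intervals. Cells with Il12rb2 reach 20.0 to 29.1% in all libraries, while the lines of Il12rb1 and Il18r1 go down in 3 of 4 libraries and those of Stat4 go up in 3 of 4.

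Splitting the cells by each receptor gene also named the genes that went with it. Of 472 cells with an Il12rb2 UMI against 19152 without, the 5 genes with the largest positive difference were Gzmc (2.13 ± 0.25), Klra9 (1.82 ± 0.21), Gzmb (1.80 ± 0.16), Serpinb9 (1.72 ± 0.21) and Gramd3 (1.63 ± 0.20), of which Gzmb and Gzmc encode granzymes, Serpinb9 a granzyme B inhibitor and Klra9 a Ly49 receptor of NK cells. The median of all genes in this comparison was at -0.11. At the other end Fam83a, Abi3bp and Igf1r had 1 UMI each in the cells with Il12rb2 and 1538, 1766 and 1139 in the others, where 21.7, 20.5 and 15.9 UMIs were expected at the level of the cells without Il12rb2 in the same libraries, of which Csf3r+/+ library 2 held 326 of the 472. The expected number was thus 21.7, 20.5 and 15.9 times the observed one, with exact 95% Poisson intervals from 3.90, 3.68 and 2.86 up to 858, 811 and 629. Il17a was lower (-2.67 ± 0.34, edgeR adjusted p = 4.25e-12). Of the pathway genes Gzmb, Ifng and Cxcr3 (0.95 ± 0.22) were higher, Il23r had 1 UMI against 802, and Ifngr2 had none against 834. For Il23r 10.5 UMIs were expected at the same library mix, which is 10.5 times the observed number (exact 95% Poisson interval 1.89 to 415). At the same library mix 13.9 Ifngr2 UMIs were expected, so that Ifngr2 was at least 4.64-fold lower when 3 UMIs over the group are taken as the limit.

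Among 1526 cells with and 18098 without an Il12rb1 UMI, where 2.14% of 8709 genes passed, the leading genes were Ifi204 (1.14 ± 0.18), Serpina3f (0.90 ± 0.22), Mx1 (0.72 ± 0.17), Phf11a (0.71 ± 0.17) and Eif2ak2 (0.71 ± 0.18). Mx1, Ifi204 and Eif2ak2 are known to be induced by interferons. Of the pathway genes Furin, a target of IL-12 signals, was also higher (0.50 ± 0.09, edgeR adjusted p = 0.00227). Elsewhere Furin went with the type 3 side: it was lower in the type 1 range (-2.28 ± 0.12), with Ifng (-0.80 ± 0.17) and with Tbx21 (-1.13 ± 0.22). Lowest were the Ly49 receptor genes Klra1 (-1.47 ± 0.16) and Klra7 (-1.17 ± 0.12) and the chemokine Ccl5 (-1.07 ± 0.11), and Gzmb was lower too (-0.42 ± 0.09).

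Of 9128 genes, 3.06% passed between 3927 cells with and 15697 without an Il18r1 UMI, with Cysltr1 (0.65 ± 0.13), Ffar2 (0.63 ± 0.14), Lmo4 (0.61 ± 0.13), Mturn (0.60 ± 0.14) and Igf1r (0.56 ± 0.11) highest. None of 45 pathway genes was higher and 5 were lower, among them Prf1 (-1.19 ± 0.29), the pore protein of cytotoxic granules, and Gzmb (-0.90 ± 0.15). Ifng (-0.37 ± 0.14), Tbx21 (-0.56 ± 0.18) and Eomes (-0.62 ± 0.23) did not pass (edgeR adjusted p = 0.199, 0.12 and 0.2), and without Csf3r+/+ library 2 all 3 passed, at -0.78, -1.14 and -1.22 (adjusted p = 0.000248, 0.00317 and 0.0372). The antigen-presentation gene H2-Eb1 (-1.51 ± 0.13), 2810417H13Rik (-1.45 ± 0.15) and the chemokine Ccl3 (-1.23 ± 0.29) were the lowest of all genes that the naming rule allowed.

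Few genes went with Il18rap: 30 of 8739 passed (0.343%) between 1391 cells with and 18233 without. Besides Ifng and Gzmb (0.38 ± 0.05), the leading genes were Ifitm3 (0.73 ± 0.08), Ifitm2 (0.67 ± 0.15), Ifit1bl1 (0.66 ± 0.15), Klri2 (0.62 ± 0.16) and Gzmc (0.61 ± 0.14). The lowest were Apoe (-1.44 ± 0.16) and Lyz2 (-1.12 ± 0.21), which belong to the macrophage list, and Ccr7 (-0.68 ± 0.17). Stat4 cells (2619 against 17005, 2.78% of 9037 genes passing) likewise had less Apoe (-1.19 ± 0.11) and Lyz2 (-1.0 ± 0.15), and less H2-Ab1 (-0.94 ± 0.14). The part of macrophage RNA in these differences was not tested. The genes highest with Stat4 were Areg (1.08 ± 0.13), a growth factor of the EGF family, Serpinb9 (0.85 ± 0.08), the nuclear receptor Nr4a3 (0.80 ± 0.11), Ell2 (0.78 ± 0.15) and Gramd3 (0.77 ± 0.08). Of 44 pathway genes, 7 were higher and none lower with Stat4, led by Gzmb (0.43 ± 0.06), Socs3 (0.40 ± 0.11) and Irf1 (0.40 ± 0.08).

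The receptor chains that act together were seldom found in the same cell. No member passed in the split by any other member, and the nearest was Il12rb2 in the Stat4 split (0.59, edgeR adjusted p = 0.0579). It passed in 2 of 8 alternatives, without barcodes of other cell types (0.63, adjusted p = 0.0446) and with a second thinning (0.70, adjusted p = 0.0265). Il18r1 in the Il12rb2 split (-0.66, adjusted p = 0.28) passed without Csf3r+/+ library 2 (-1.36, adjusted p = 0.00627). Without thinning, Il18r1 passed in the Stat4 split (-0.25, adjusted p = 0.00843) and Stat4 in the Il12rb1 split (-0.27, adjusted p = 0.0304). Cells with both IL-12 receptor chains numbered 4, 10, 2 and 4 in the 4 libraries, which is 1.36, 1.1, 0.456 and 0.583 times the number expected from the shares of each. For Il18r1 with Il18rap the numbers were 30, 101, 76 and 82 cells, or 1.19, 1.21, 1.11 and 0.898 times the expectation, with 17.5%, 17.7%, 26.4% and 22.8% of Il18rap cells having an Il18r1 UMI. Of the cells with Il12rb2, 6.25%, 15.0%, 20.0% and 8.86% had an Il18r1 UMI, against 14.8%, 14.6%, 23.8% and 25.6% of the others. At 1500 UMIs per cell most cells that transcribe a gene at these levels hold no UMI of it, so these numbers limit UMIs seen together and not cells expressing both chains.

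The genotypes were also compared in the size of each within-library difference, and no member passed. In the type 1 against type 3 difference, where 0.143% of genes passed, Il12rb2 was 2.12 higher in Csf3r-/- on the log2 scale (edgeR adjusted p = 0.403). In the split by Ifng, where 0.0443% passed, it was 1.62 higher (adjusted p = 0.332). In the split by Tbx21, where 1.47% passed, the nearest member was Stat4, 1.03 higher in Csf3r-/- (adjusted p = 0.0705). No member passed in such a test of the splits by Il12rb1, Il12rb2, Il18r1, Il18rap or Stat4 either, chosen after the values were seen, where 0.023%, 0.31%, 0.197%, 0.0458% and 0.255% of genes passed.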

How the data were processed

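Single-cell 3′ libraries of sorted UTCαβ were deposited by the authors as raw counts of UMIs per gene and barcode, 1 matrix per genotype, made with Cell Ranger on mm10 and with both libraries of a genotype joined. Whether reads were first subsampled to equal depth is not stated. Subsampling would bear on the UMIs per cell, and so on which cells passed the limits and were deep enough to be thinned. The submitters' processing notes also list bcl2fastq, R 3.4.4 and Seurat 2.3.4. The columns of per-sample values without a sample numbered 0.

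Barcodes were kept with 1 Cd3e UMI and 200 genes or more, up to 20000 UMIs and no more than 10% of UMIs from mitochondrial genes. No doublet caller was run. For cell sets, each cell was thinned to 1500 UMIs with a fixed seed, and UMIs were summed per library and cell set. The sums were tested with edgeR 4.0.16 in R 4.3.3 (TMM scaling, low-count filter, quasi-likelihood test, two-sided), with the library as a block within libraries and adjusted p at a threshold of 0.05. DESeq2 1.42.0, no filter, no thinning, a second seed, leaving out each library, a replicate block, no Cd3e filter, an upper limit on genes per cell and leaving out barcodes with 3 or more UMIs of other cell types were the alternatives. Intervals are exact 95% intervals and cover counting error only. CPM were scaled by UMI totals without TMM, so a log2 difference of a fit need not equal the ratio of the CPM beside it. Python 3.11.15 was used for the sums.

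The 5 genes, the gene lists and the tests were chosen with earlier results of these data known. Genes named beside the 5 are, per comparison, the 3 pathway genes past the threshold that changed most upward and downward, all such genes between genotypes, the reference genes Tbx21, Ifng, Eomes and Il17a, and per split the 5 highest and 3 lowest genes with a mean of at least 20 CPM. Some genes that this rule or a list names are not reported here. The test was checked on simulated counts with 200 changed genes: of changes of 2 on the log2 scale, edgeR recovered 95% between genotypes (11322 genes), 62.5% in the Il12rb2 split (8195 genes), 90.5% between genotypes in the type 1 range (7691 genes) and 99% between the ranges (8212 genes), and of changes of 1 it recovered 8% (11325 genes), 4.5% (8192), 3.5% (7694) and 58% (8227). The simulated counts had the same spread for every gene, set beforehand and not estimated from these libraries, and no library effect. The recovered shares hold for that setting, and recovery at the spread of these libraries was not measured.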

Additional observations from a re-analysis of the deposited data

Results flagged for a closer look

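In 2 cases the within-library difference of Ifng differed between the genotypes by a test of that difference. Ifng was higher in cells with a Tbx21 UMI by 1.80 ± 0.24 (SE) more on the log2 scale in Csf3r-/- than in Csf3r+/+ libraries (edgeR adjusted p = 1.47e-10, DESeq2 adjusted p = 0.0028). In CPM Ifng was at 390, 459, 199 and 422 with Tbx21 and at 191, 326, 45.4 and 70.4 without, in Csf3r+/+ libraries 1 and 2 and Csf3r-/- libraries 1 and 2. The Ifng difference between cells with and without Il12rb2 was likewise 1.92 ± 0.38 larger in Csf3r-/- libraries (edgeR adjusted p = 0.000373, DESeq2 adjusted p = 0.0325). The test by Il12rb2 was chosen after the values were seen. Both tests set 2 against 2 libraries, where an exact permutation test cannot go below 0.333. Their smaller p-values rest on the spread that the models share between genes. The cells without Tbx21 or Il12rb2 were not of the same make-up in the 2 genotypes. The type 3 range held 49.8% and 9.32% of thinned Csf3r+/+ cells and 76.1% and 79.2% of thinned Csf3r-/- cells. The part of this difference in the 2 results was not tested.

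Outside the cells compared, 11050 barcodes passed the other limits without a Cd3e UMI, and all 5 genes were found in them. They held 37.7 CPM of Il12rb1, 26.0 of Il12rb2, 131 of Il18r1, 53.6 of Il18rap and 120 of Stat4. The kinds of cell among these barcodes were not tested.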

How the results depend on the processing

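All 5 differences between the ranges passed in the same direction under each of the 10 alternatives run for them. Of the log2 changes recomputed under an alternative, 500 kept direction and side of the threshold, 20 newly passed, 4 no longer passed and 29 changed sign. The cause was not tested. Over all cells between genotypes, DESeq2 called 626 genes, no filter 303 and the replicate block 300, against 0, and DESeq2 passed Il18r1 (0.87). Leaving out 1 library gave 0 to 847 genes, Il12rb1 0.27 to 1.90, Il18rap -0.68 to 0.16 and Stat4 -1.05 to 0.27. In the Tbx21 split, 283 genes were called with no filter and 299 with no thinning, Il18r1 passed with no filter (-0.71), no thinning (-0.60) and a second seed (-0.72), and leaving out 1 library gave 55 to 407 genes and Il18r1 -1.01 to -0.42. In the Ifng split, no filter called 616 genes and passed Il18r1 (-0.46), a second seed lost Il18rap (0.45), and leaving out 1 library gave 131 to 688 genes, Il12rb2 0.85 to 1.97, Il18r1 -0.67 to -0.32 and Stat4 0.30 to 0.62.

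Between genotypes in the type 1 range, 333 genes were called with no filter and 314 with the replicate block, and leaving out 1 library gave 0 to 365 genes, Il12rb2 -0.48 to 1.34, Il18r1 -0.16 to 1.17, Il18rap -0.46 to 0.0080 and Stat4 -0.25 to 0.67. In the type 3 range the count was 182 with DESeq2, 573 with no filter, 0 with no thinning and 291 with the replicate block, and 0 to 52 without 1 library, which gave Il12rb1 -0.24 to 1.07, Il18r1 -0.0066 to 0.32, Il18rap -0.35 to 0.21 and Stat4 -0.52 to 0.38. There, near 0, the sign changed with ranges that differ by 3 or more UMIs, chosen after seeing the data (Il18r1 -0.015, Il18rap 0.16, Stat4 0.22), no thinning (Il18rap 0.0085), a second seed (Il18rap 0.031, Stat4 0.016), no filter (Stat4 0.035) and without barcodes of other cell types (Stat4 0.0045).

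In the splits by a member, the Il12rb1 split called 50 genes with DESeq2, 287 with no filter and 78 to 186 without 1 library (Il12rb2 -0.64 to 0.017). The Il12rb2 split called 55 with DESeq2, 231 with no thinning and 49 to 217 without 1 library. The Il18r1 split called 70 with DESeq2, 486 with no filter, 145 with no thinning and 124 to 278 without 1 library (Il18rap -0.038 to 0.26). The Il18rap split called 9 with DESeq2, 61 with no filter, 56 with no thinning, 13 with a second seed and 14 to 25 without 1 library, and there Il18r1 was -0.020 with no thinning and Stat4 -0.024 with no filter and -0.047 with a second seed. The Stat4 split called 92 with DESeq2, 463 with no thinning and 80 to 253 without 1 library. For differences between genotypes DESeq2 called 27 genes in the Tbx21 split, 0 in the Ifng split (edgeR 4) and 23 in the ranges, and it put Il12rb2 in the Il18rap split at -0.028 and Il18r1 in the Stat4 split at 0.0012.

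Without the Cd3e filter, Il18r1 was at 96.5 and 99.8 CPM in the Csf3r+/+ libraries. Shares of cells rose with depth. With no thinning, in the order of the libraries used above, they were 17.6, 6.07, 19.8 and 13.1% for Il12rb1, 2.88, 11.6, 1.65 and 2.30% for Il12rb2, 27.5, 28.2, 36.9 and 35.1% for Il18r1, 12.1, 19.4, 10.8 and 9.45% for Il18rap, and 19.6, 38.0, 14.9 and 18.4% for Stat4. At 1000 UMIs they were 6.01, 2.01, 8.61 and 6.33%, 1.02, 3.87, 0.463 and 0.864%, 9.71, 10.3, 17.2 and 18.6%, 3.76, 6.38, 4.12 and 4.04%, and 6.33, 14.0, 6.03 and 8.50%. The libraries share only a number with those of the other genotype (correlation of their deviations 0.294 over 11491 genes, 2 pairs), so the block was not taken as a pairing, and under it none of the 5 genes passed between genotypes.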
